A study of Mus musculus with 2 samples.

Results

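The 10 genes described here are inducible inflammatory genes of macrophages, the resident and recruited phagocytes of the liver: the cytokine genes Il6, Il1b and Tnf, the enzyme genes Nos2, Acod1, Ptgs2 and Ch25h, and the receptor genes Clec4e, Gpr84 and Cd40. They are 10 of 20652 genes with a named probe on the array, and they were chosen by their processed signals in this same comparison, which earlier results had shown to be high in the Ad-378 pool. Their differences between the pools are therefore given as a description, with no test. Each gene had 1 probe, and the 10 probes covered 46 spots, since the probes of Il1b, Tnf, Acod1 and Ptgs2 were each printed in 10 spots.

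The Ad-378 group was male mice infected with an adenovirus that, by its label, overexpresses the microRNA miR-378, and the Ad-Ctrl group was male mice infected with a control adenovirus. Both viruses were given through the tail vein at 1e9 plaque forming units to mice 8 weeks old, and every mouse in either group carried an adenovirus, so no group here shows a liver without virus. The livers of 5 mice were pooled in each group and the pool was measured on 1 single-colour Agilent array, which leaves no spread between mice, no p-value and a precision limited by the number of arrays. The protocols place collection 2 weeks after injection for both groups, whereas the description of the Ad-378 pool gives 3 weeks. Mouse strain, the promoter in the virus and the insert of the control virus are not given in the labels.

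In a resting macrophage most of these genes are nearly silent. Bacterial products, tissue damage and cytokines act through Toll-like receptors and related sensors on NF-kB, AP-1, C/EBP and interferon regulatory factors. The genes are then switched on together within hours. Their products carry the signal to other cells (the cytokines), make small molecules that act on microbes and metabolism (nitric oxide, itaconate, prostaglandins, 25-hydroxycholesterol) or make the macrophage more responsive (the receptors). In the liver the main macrophage is the Kupffer cell of the sinusoids, and hepatocytes answer IL-6 and IL-1 by making acute phase proteins.

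The promoter sequences of 8 of the 10 genes, from 250 bases before to 50 bases after the annotated start, were available from RefSeq on build GRCm38.p6, the exceptions being Nos2 and Cd40. The 5 printed here are examples of the kinds of match found: Il6, Tnf and Acod1 hold NF-kB letters, Ptgs2 holds C/EBP letters without them, and Ch25h holds a cyclic AMP response element. Capitals mark matches on either strand to NF-kB (GGGANNTTC or GGANNTTCC, which overlap in Il6 and are there 1 site), C/EBP (TTGCNNAA), the cyclic AMP response element (TGACGTCA) and the TATA box (TATAAA). The windows are Il6 at chr5:30012864-30013163 (plus strand), Tnf at chr17:35201958-35202257 (minus strand), Acod1 at chr14:103046762-103047061 (plus strand), Ptgs2 at chr1:150099781-150100080 (plus strand) and Ch25h at chr19:34475099-34475398 (minus strand), and each is written 5′ to 3′ on the strand of its gene.
Il6: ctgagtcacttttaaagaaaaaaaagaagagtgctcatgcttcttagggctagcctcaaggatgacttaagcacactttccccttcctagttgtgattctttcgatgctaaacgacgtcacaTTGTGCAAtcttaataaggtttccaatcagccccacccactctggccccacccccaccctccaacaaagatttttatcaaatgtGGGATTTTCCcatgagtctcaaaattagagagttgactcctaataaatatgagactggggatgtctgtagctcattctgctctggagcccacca
Tnf: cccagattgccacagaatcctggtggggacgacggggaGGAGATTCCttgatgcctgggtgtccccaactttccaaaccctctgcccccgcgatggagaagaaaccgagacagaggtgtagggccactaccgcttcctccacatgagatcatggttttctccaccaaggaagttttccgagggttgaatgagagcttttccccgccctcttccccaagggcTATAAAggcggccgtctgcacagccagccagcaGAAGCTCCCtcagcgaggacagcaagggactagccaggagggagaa
Acod1: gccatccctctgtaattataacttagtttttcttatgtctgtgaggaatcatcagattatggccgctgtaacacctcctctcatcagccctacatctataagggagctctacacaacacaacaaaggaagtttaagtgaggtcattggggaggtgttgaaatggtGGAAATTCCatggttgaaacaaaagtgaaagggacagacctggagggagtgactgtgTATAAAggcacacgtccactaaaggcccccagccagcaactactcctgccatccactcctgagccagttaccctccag
Ptgs2: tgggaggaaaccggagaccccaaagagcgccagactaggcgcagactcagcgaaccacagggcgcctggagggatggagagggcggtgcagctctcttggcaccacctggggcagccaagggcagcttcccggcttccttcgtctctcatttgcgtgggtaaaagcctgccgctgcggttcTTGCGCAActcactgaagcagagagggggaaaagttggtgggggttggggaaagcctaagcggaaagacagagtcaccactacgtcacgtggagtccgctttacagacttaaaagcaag
Ch25h: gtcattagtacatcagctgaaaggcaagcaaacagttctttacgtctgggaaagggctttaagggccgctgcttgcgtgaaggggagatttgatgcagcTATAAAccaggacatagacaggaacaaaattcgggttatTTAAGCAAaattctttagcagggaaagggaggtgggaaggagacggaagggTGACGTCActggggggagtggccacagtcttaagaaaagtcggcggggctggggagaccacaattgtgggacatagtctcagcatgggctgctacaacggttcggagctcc

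GGGANNTTC was found in 3 of the 8 windows, against 3.94% of all 32851 RefSeq windows, and GGANNTTCC in 3 of 8 against 4.26%. Il6 held the NF-kB letters starting 44 bases before the start, Acod1 85 bases before it and Tnf 212 bases before it, and Tnf held a further match within the first bases of the transcript. Gpr84 held matches 134 and 37 bases before its start. The C/EBP letters were in 4 of 8 windows (Il6, Ptgs2, Clec4e and Ch25h), against 10.8% of all windows, and TATAAA was in 5 of 8, against 13.6%. The full cyclic AMP response element was in Ch25h alone of the 8, 61 bases before the start, and in 1.79% of all windows. Its end TGACG, which lies within it in Ch25h, was in 3 of 8 windows against 20.8%, and AP-1 (TGANTCA) in 1 of 8, Il6, against 7.81%. The interferon elements ISRE (GAAANNGAA) and GAS (TTCNNNGAA) were in 0 of 8 windows, against 8.56% and 8.3% of all windows. These are letter matches in a 300-base window and say nothing of binding.

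Both arrays measured liver RNA of similar breadth. Each array held 43020 gene spots, of which 28262 (65.7%) stood well above background for the Ad-378 pool and 27161 (63.1%) for the Ad-Ctrl pool, and 0 were saturated. The hepatocyte marker list, which includes albumin and transthyretin, had 11 of 12 genes measured on both arrays, all within 2-fold, with a median log2 difference of 0.14 that was -0.08 after loess normalization. Differences are given as Ad-378 minus Ad-Ctrl on a log2 scale after dividing each array by its own 75th percentile, and the ± beside a difference is the scanner's own error for the spots, which covers measurement on the array and not mice. A gene above background on the Ad-378 array only has a lower bound, "at least N-fold", set against the dimmest detected signal of the Ad-Ctrl array. This bound is nominal: a Tnf spot not well above background on the Ad-Ctrl array read 17.1, above that signal. Its size also depends on the processing.

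In the Ad-378 pool all 10 genes were higher by 2-fold or more. Over the whole array 2.81% of 14288 genes measured on both arrays were that much higher (3.31% of 15348 with bounds included), and 4.55% were that much lower. Because the same contrast chose the 10 genes, nothing is read from this count. The 8 genes measured on both arrays had differences between 2.33 and 4.94, with a median of 3.29 (9.75-fold), while the median over all genes was 0.04 and 73.4% of genes lay within 0.5 of 0. With each bound ranked at its lower limit, so that ranks are approximate, 9 of the 10 genes were among the 20 highest values on the array, and Il1b, the lowest, was at rank 35.

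**Figure D1:**
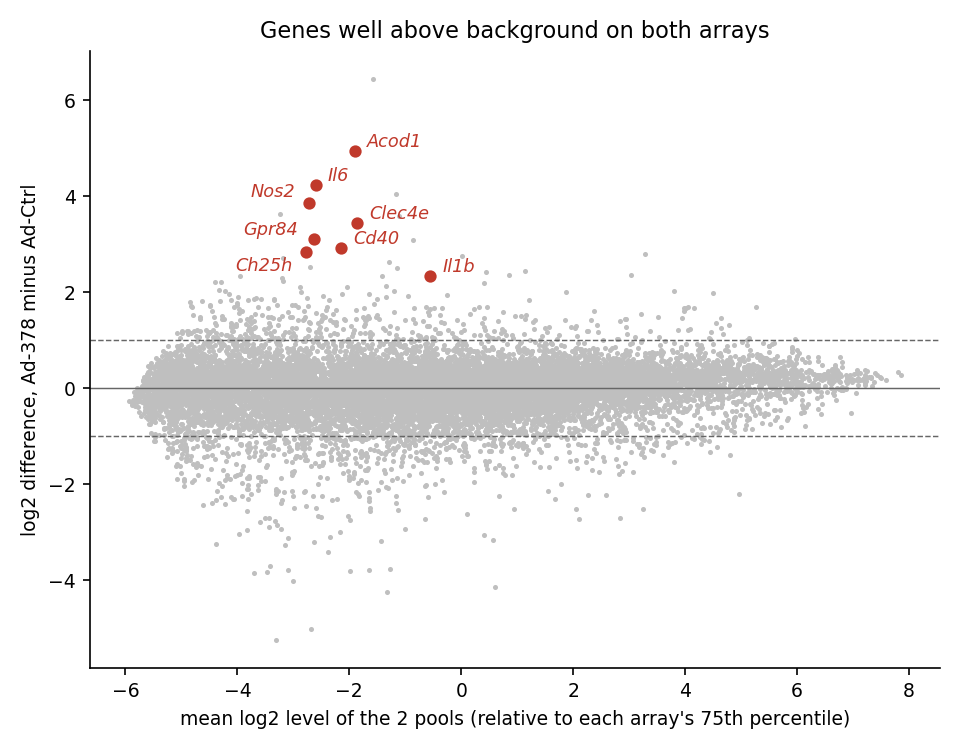
Log2 difference between the Ad-378 and Ad-Ctrl pools (vertical axis) against the mean log2 level of both pools relative to each array's 75th percentile (horizontal axis), 1 point per gene well above background on both arrays. The 8 inducible genes measured on both arrays, in red, lie between 2.33 and 4.94, above the dashed line at 2-fold. Tnf and Ptgs2 have only bounds and are not drawn.

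Among the cytokine genes, Il6 encodes interleukin-6, the main inducer of the hepatocyte acute phase response. Its single spot read a processed signal of 547 in the Ad-378 pool and 33.4 in the Ad-Ctrl pool, a log2 difference of 4.23 ± 0.25 (18.8-fold). Before background subtraction the readings were 589.5 and 80 for the same pools, so the Ad-Ctrl value rests on a dim spot with a local background of 27.

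Tnf encodes tumour necrosis factor, the early macrophage cytokine that acts on endothelium and hepatocytes. Its 10 spots read between 216 and 330 (median 259) in the Ad-378 pool and between 9.81 and 17.2 (median 15.5) in the Ad-Ctrl pool, and the ranges did not overlap. All 10 spots were well above background on the Ad-378 array, against 3 of 10 on the Ad-Ctrl array, where Tnf therefore counts as not well above background. The Ad-378 pool was at least 19.5-fold higher for Tnf (a log2 bound of 4.29).

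Il1b encodes interleukin-1 beta, which is made as an inactive precursor and cut by caspase-1 in the inflammasome. It had the smallest difference of the 10 genes, and its Ad-Ctrl signal, with a mean of 267, lay far above the dimmest detected signal of that array, 15.2. Its 9 unmarked spots read 1069 to 1577 (median 1124) in the Ad-378 pool and 249 to 275 (median 269) in the Ad-Ctrl pool. The difference was 2.33 ± 0.20 (5.04-fold), and over 8 spots unmarked on both arrays it ran from 2.16 to 2.42.

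**Figure D2:**
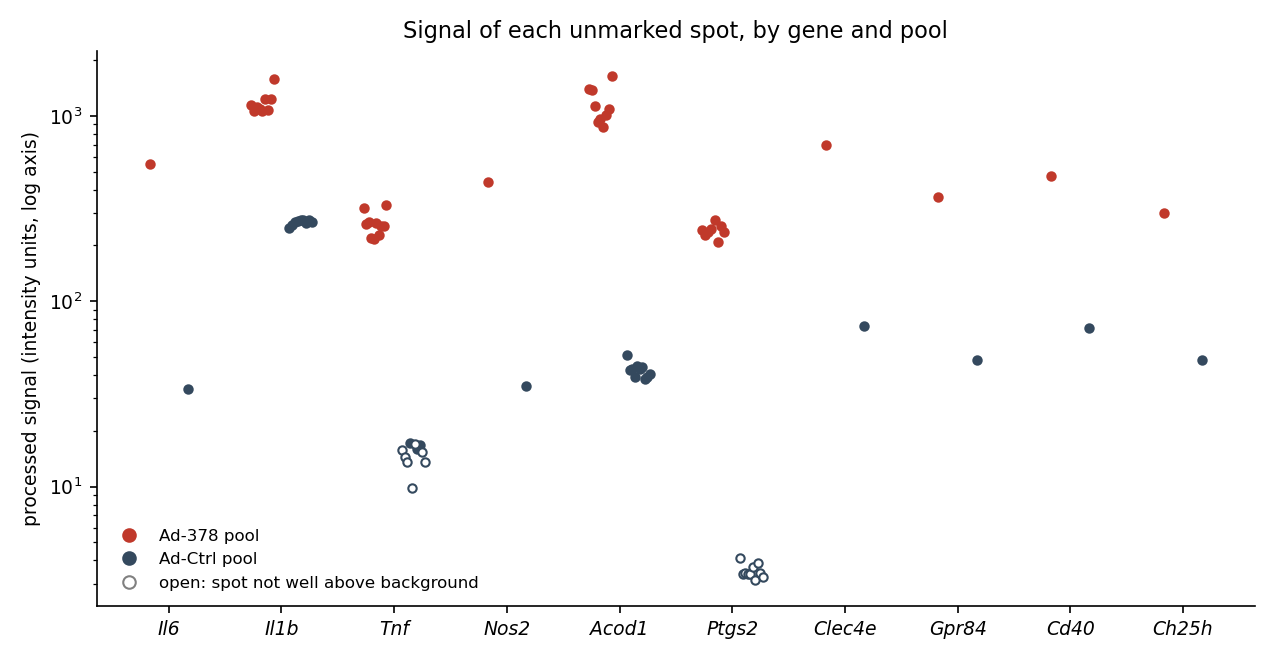
Processed signal of each unmarked spot (log axis, intensity units) for the 10 genes, with the Ad-378 pool in red to the left of the Ad-Ctrl pool in dark blue, and open points for spots not well above background. For each gene every Ad-378 spot lies above every Ad-Ctrl spot. The spots of 1 pool are repeat readings of 1 RNA sample.

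The enzyme genes included Acod1, with the largest difference among the 8 genes measured on both arrays. Acod1 encodes aconitate decarboxylase 1, the mitochondrial enzyme that makes itaconate from the citrate cycle intermediate cis-aconitate in activated macrophages. Its unmarked spots read 872 to 1644 (median 1087) in the Ad-378 pool and 38.1 to 51.4 (median 42.9) in the Ad-Ctrl pool. The difference was 4.94 ± 0.24 (30.6-fold), and it ran from 4.54 to 5.54 over 9 spots unmarked on both arrays.

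Nos2, which encodes the inducible nitric oxide synthase that makes nitric oxide from arginine, read 442 in the Ad-378 pool and 34.9 in the Ad-Ctrl pool. The difference was 3.86 ± 0.27 (14.5-fold) on 1 spot per array. Readings before background subtraction were 395 in the Ad-378 pool and 67 in the Ad-Ctrl pool, a narrower gap than after it.

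Ptgs2 encodes cyclooxygenase-2, the inducible first enzyme of prostaglandin synthesis. Its 8 unmarked spots on the Ad-378 array read 209 to 276 (median 240) and all were well above background, against 3.12 to 4.11 (median 3.41) for 10 spots on the Ad-Ctrl array, of which 0 were well above background. The nominal bound was 18.2-fold higher in the Ad-378 pool (log2 4.18). With an Ad-Ctrl signal at background, no upper size of this difference could be given.

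Ch25h encodes cholesterol 25-hydroxylase, which makes 25-hydroxycholesterol, an oxysterol that restrains cholesterol synthesis and viral entry. Its signal was 299 in the Ad-378 pool and 48.0 in the Ad-Ctrl pool, a difference of 2.84 ± 0.22 (7.16-fold). The local background of its spot was 39 on the Ad-378 array and 52 on the Ad-Ctrl array, and on raw signals without background subtraction the difference was 1.94, the lowest value of any of the 10 genes under any setting tried.

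The 3 receptor genes had differences close to one another. Clec4e encodes Mincle, a C-type lectin receptor for mycobacterial glycolipid and for a nuclear protein of dying cells, and its spot read 698 in the Ad-378 pool and 73.1 in the Ad-Ctrl pool, a difference of 3.45 ± 0.22 (10.95-fold). Gpr84, a G protein-coupled receptor activated by medium-chain fatty acids, read 365 in the Ad-378 pool and 48.3 in the Ad-Ctrl pool, a difference of 3.12 ± 0.23 (8.68-fold). Cd40, the receptor through which T cells license macrophages and dendritic cells, read 475 in the Ad-378 pool and 72.2 in the Ad-Ctrl pool, a difference of 2.92 ± 0.21 (7.55-fold). The gap between neighbours in this order, Clec4e, Gpr84, Cd40 and Ch25h, was in each case within 2 scanner errors of a single difference, so their order is not settled by these spots.

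Every gene kept a difference or bound of at least 1 log2 unit under 10 other ways of processing the arrays, but the sizes moved. With normexp background correction, which compresses dim signals, Il6 was at 2.82, Nos2 at 2.48, Acod1 at 3.68 and the bounds of Tnf and Ptgs2 at 2.23 and 2.31. Il1b, which was clear of background in both pools, ran only from 2.10 to 2.36 over the 10 settings.

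**Figure D3:**
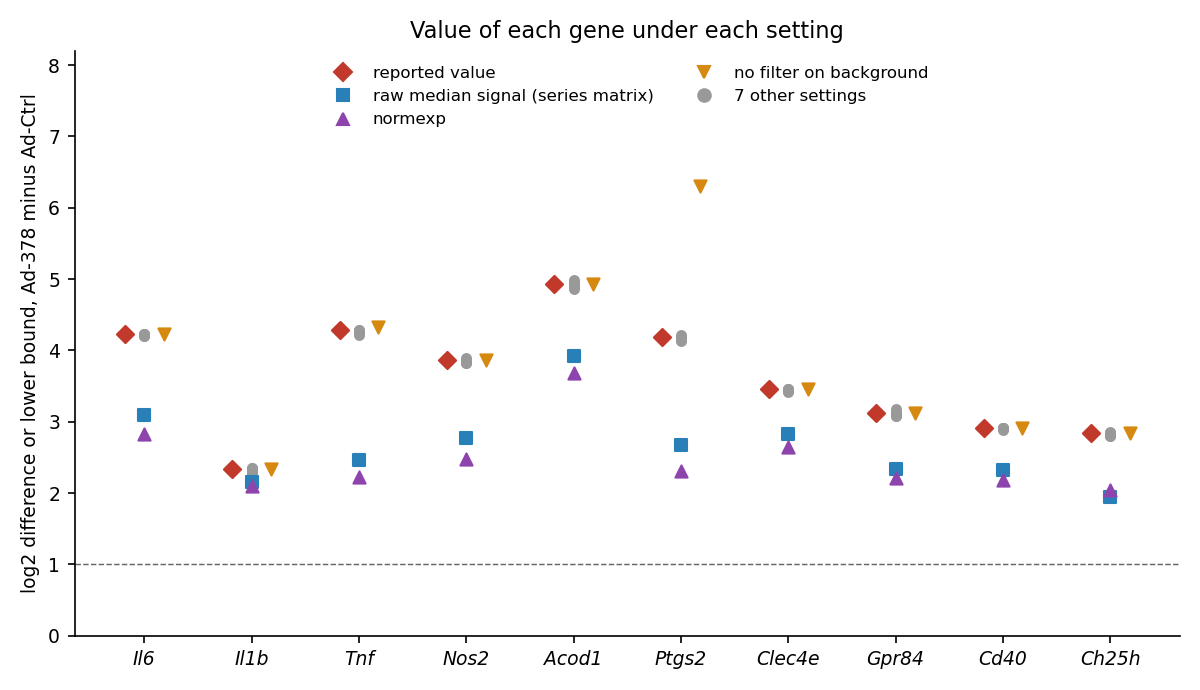
Log2 difference or lower bound, Ad-378 minus Ad-Ctrl, of each of the 10 genes under the reported setting (red diamonds) and 10 others, with normexp, raw median signals and no background filter marked by shape and 7 others in grey. All values lie above the dashed line at 2-fold. Without the background filter Ptgs2 reached 6.31, where its Ad-Ctrl signal was at background.

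The position of the spots on the Ad-378 array set the 4 genes printed in 10 spots apart, a property that the choice of genes did not use. Across an array the scanner software fits a smooth trend in brightness and multiplies it out, and for each probe the 3 spots with the largest correction were set against its other spots, on the background-subtracted signal before the correction. Because the correction is largest where the fitted trend is dimmest, most probes should by construction be dimmer in those 3 spots. Of 238 probes bright enough for this on the Ad-378 array, 233 were dimmer in those 3 spots, with a median difference of -0.27 on the log2 scale. The 5 that were brighter there were Acod1 (0.23), Tnf (0.08), Il1b (0.06), Ptgs2 (0.05) and Ccl2 (0.14). On the Ad-Ctrl array the 3 spots were chosen by that array's own correction, so they need not be the same positions. There 0 of 239 probes were brighter in the 3 spots and the median was -0.23. Il1b was there at -0.16, Ccl2 at -0.06 and Acod1, below the brightness limit on that array, at -0.18.

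The comparison by position was chosen after the data had been seen. The next 5 probes by value on the Ad-378 array were Nckap1l, an actin regulator of blood cells (-0.0003), the anti-inflammatory cytokine Il10 (-0.01), the RNA-modifying enzyme Trub2 (-0.03), the apolipoprotein Apoe and the lipopeptide receptor Tlr2 (both -0.04). Of these Nckap1l was lower in the Ad-378 pool (-0.93) and Apoe was within 2-fold, so the probes near 0 were not all higher genes. Of the 7 other probes with a 2-fold or larger excess in the Ad-378 pool, the 4 genes outside the inflammatory lists were at -0.17 (Pex11a), -0.21 (Kif5a), -0.30 (Duox1) and -0.34 (Tex12). The trend correction, taken by itself on background-subtracted signals, went with a wider spread of the 4 genes' spots on the Ad-378 array. The SD of log2 signal was 0.18 with and 0.04 without the correction for Il1b, 0.21 with and 0.09 without it for Tnf, 0.31 with and 0.17 without it for Acod1, and 0.12 with and 0.07 without it for Ptgs2. For most probes the correction is made to narrow this spread. Over 286 probes in 10 spots above background on both arrays, among them Il1b and Acod1, the median SDs were 0.06 with and 0.18 without it, and the spread was wider with it in 20 and narrower in 266. Whether this departure from the array's common trend has a part in the height of the 10 genes was not tested. The 6 genes with 1 spot cannot be examined in this way. Leaving the correction out kept all 10 genes at least 2-fold higher. The departure was seen in the signal before the correction, so that setting still contains it and cannot decide the question.

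**Figure D4:**
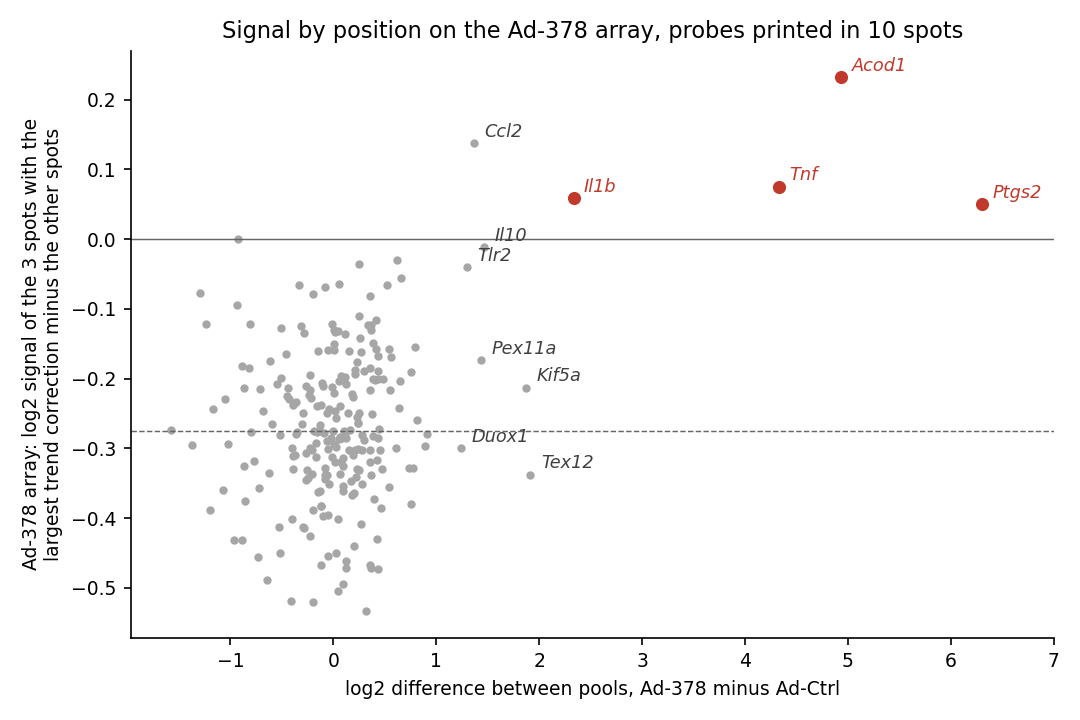
Background-subtracted log2 signal on the Ad-378 array of the 3 spots with the largest trend correction minus the other spots of the same probe (vertical axis) against the log2 difference between the Ad-378 and Ad-Ctrl pools (horizontal axis), for 238 probes printed in 10 spots. The dashed line is the median of -0.27, and the 4 inducible genes in red lie between 0.05 and 0.23. Tnf and Ptgs2 are drawn at their measured difference, although neither was well above background on the Ad-Ctrl array.

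The pathway partners of the 10 genes did not share their height. Of 9 partners of IL-6 measured on both arrays 0 were 2-fold different in either direction, and the list's median was 0.15: the suppressor Socs1 was at 0.85, the transducer Stat3 at 0.54, the feedback inhibitor Socs3 at 0.48 and the shared receptor chain Il6st at -0.53. Of 11 partners of IL-1 beta 0 were 2-fold different (median 0.19), with the inflammasome sensor Nlrp3 at 0.73, the sister cytokine Il1a at 0.66, the receptor antagonist Il1rn at 0.46 and the processing enzyme Casp1 at -0.04. Of 10 partners of TNF 0 were 2-fold different (median 0.02, which turned negative under 2 of 10 settings), with the sheddase Adam17 at 0.40, the mRNA-decay factor Zfp36 at -0.45 and the inhibitor Tnfaip3 at -0.02, itself within its error of 0.

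The metabolic partners were mixed. Among 9 genes of itaconate and citrate metabolism 0 were 2-fold different (median 0.29), and among 8 of nitric oxide and arginine metabolism 1 was lower, Arg2, a mitochondrial arginase at -1.07 that was at -0.23 with normexp. Of 11 prostaglandin genes 0 were 2-fold higher, 2 were 2-fold lower and 9 had negative differences, with a median of -0.62. The 2 were Ptger2, a receptor for prostaglandin E2 (-1.09), and Tbxas1, the thromboxane synthase (-1.08), and both were within 2-fold with normexp and with raw signals. Ptgs1, the constitutive cyclooxygenase beside Ptgs2, was at -0.62. Of 7 genes listed around 25-hydroxycholesterol and related sterols, 3 were higher. Cyp7b1, the hydroxylase that breaks 25-hydroxycholesterol down, was at 1.71, and Insig1, which holds back the sterol sensor, at 1.24 (0.93 with normexp). Cyp46a1, a cholesterol hydroxylase known from neurons and listed as a related sterol enzyme, was 2.82-fold higher. Gpr183, the receptor for a product of 25-hydroxycholesterol, was at -0.66.

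The partners of the receptors were also mixed. Among 6 partners of Mincle 0 were 2-fold different (median -0.32), with the related lectin Clec4d at 0.87 and the signalling chain Fcer1g at -0.85, while Card9 was not well above background on either array. Among 7 partners of CD40 the adaptor Traf1, itself an NF-kB target, was at 1.63 and the other 6 were within 2-fold, with the co-stimulator Cd86 at -0.65; the ligand Cd40lg was not well above background on either array. Of 5 other receptors of fatty acids and related acids 3 were measured, with Ffar3 at 0.33. Hcar2, a receptor for niacin and ketone bodies, was at 0.997 by its brighter probe, just short of 2-fold. By its other probe it was at 1.35, and with the mean over probes at 1.17.

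A list of 43 other inducible macrophage genes was split. Measured on both arrays were 32, of which 8 were higher by 2-fold or more and 0 were lower (median 0.34), and of 5 genes detected in 1 pool only 4 had bounds of at least 2-fold higher and 1, the cystine transporter Slc7a11, of at least 2-fold lower. The highest were AA467197 at 3.63 (1.99 with normexp), the monocyte-attracting chemokines Ccl4 at 3.58 and Ccl3 at 3.09, and the lymphocyte activation marker Cd69 at 2.12. Il10 was at 1.46, tissue factor F3 at 1.43, and the chemokines Ccl2 at 1.37 and Ccl7 at 1.03, and of these Il10 and Ccl7 were within 2-fold with normexp (0.90 and 0.84). Detected in the Ad-378 pool only were the activin subunit Inhba (at least 7.81-fold higher) and the chemokines Ccl12 (at least 7.69-fold), Cxcl3 (at least 5.97-fold) and Cxcl2 (at least 4.89-fold).

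The list also held genes within 2-fold. The T cell chemokine Ccl5 was at 0.14, the interferon-induced Cxcl9 at 0.01 and Cxcl10 at 0.86, the neutrophil chemokine Cxcl1 at -0.19 and the NF-kB inhibitor Nfkbia at 0.03, with Cxcl9 and Nfkbia turning sign with some settings. Il12a, Il23a, Csf2 and Csf3 were not well above background in either pool. Of 12 genes that sense endotoxin only Tlr2 was 2-fold higher by its brightest probe (1.30), while Tlr4 was at -0.71 and Cd14 at 0.23. Irak2 was at 0.42 by its brighter probe, 1.45 by its other probe and 0.94 with the mean over probes. Of 17 genes of NF-kB and its partner factors Nfkbie, an NF-kB inhibitor and target, was higher at 1.12 and Egr1 lower at -1.17, and the NF-kB subunits Nfkb1 and Rela were at -0.08 and -0.14. The immediate early genes Fos and Jun were at -0.89 and -0.99.

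Most measured genes of the acute phase, interferon-stimulated and alternative activation lists were within 2-fold. Of 20 acute phase genes 0 were 2-fold higher and 3 were 2-fold lower, namely Lcn2 (-2.51), Orm3 (-2.16) and Steap4 (-1.46), with a list median of 0.10 that turned negative under 2 of 10 settings. Of 18 interferon-stimulated genes 3 were higher, Ifit1 (1.69), Isg15 (1.06) and Cmpk2 (1.05), with a median of 0.26. Of 9 genes of alternative activation 0 were higher and Ccl17, a T cell chemokine, was lower at -1.24 (-0.37 with normexp), with a median of -0.50.

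Markers of Kupffer cells and macrophages were lower in the Ad-378 pool. Of 20 Kupffer cell and macrophage markers 18 were measured, of which 17 had negative differences, 4 of them past 2-fold, and 0 were 2-fold higher. The list's median of -0.77 stayed between -0.87 and -0.72 over the 10 settings. The summed level of the list, as a multiple of each array's 75th percentile, was 83.4 in the Ad-378 pool and 153 in the Ad-Ctrl pool. Adgre1, which encodes the macrophage antigen F4/80, was at -1.04, Cd5l at -1.13, Trem2 at -1.06 and Gpnmb at -1.25. Itgam alone was positive at 0.89, with its 3 probes between -0.26 and 0.89. Csf1r, at -0.88, also had 3 probes that differed in sign, between -0.88 and 0.36. With the mean over probes Itgam was at 0.28 and Csf1r at -0.42. Cd163 was not well above background on either array. In whole liver, fewer cells of a type and less RNA per cell cannot be told apart, so these values do not say whether the 10 genes were higher per macrophage.

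By list median, the monocyte, neutrophil, dendritic cell and T and NK cell markers were lower in the Ad-378 pool and the B cell markers higher. Of 7 monocyte markers measured 0 were 2-fold different (median -0.53), with a summed level of 7.73 in the Ad-378 pool and 10.4 in the Ad-Ctrl pool. Of 9 neutrophil markers 0 were higher and Mpo (-1.26) and Mmp8 (-1.11) were lower (median -0.38), though within 2-fold with normexp (-0.11 and -0.22) and with raw signals (-0.33 and -0.30), with sums of 15.4 in the Ad-378 pool and 16.1 in the Ad-Ctrl pool. Of 8 dendritic cell markers only Itgax passed 2-fold, at -1.96 (median -0.26), and 6 had negative differences. The summed level was 18.2 in the Ad-378 pool and 13.9 in the Ad-Ctrl pool. It was set mostly by the brightest marker, Siglech, at log2 levels of 4.12 in the Ad-378 pool and 3.64 in the Ad-Ctrl pool. Of 9 T and NK cell markers 2 were lower, Gzmb at -1.25 and Cd8a at -1.14 (-0.67 with normexp and -0.75 with raw signals), with a median of -0.42 and sums of 5.89 in the Ad-378 pool and 5.37 in the Ad-Ctrl pool. Those sums were set mostly by Cd4, at log2 levels of 2.13 in the Ad-378 pool and 1.65 in the Ad-Ctrl pool, while 6 of the 9 differences were negative. Of 5 B cell markers 1 was higher, Ms4a1 at 1.16 (0.47 with normexp and with raw signals), with a median of 0.42 and sums of 0.433 in the Ad-378 pool and 0.322 in the Ad-Ctrl pool. Of 10 sinusoidal endothelial markers 0 were 2-fold different (median -0.23), of 5 markers of activated endothelium 1 was lower, the adhesion molecule Vcam1 (-1.75), with Icam1 at 0.62 and Sele not above background in either pool, and 5 of 9 stellate cell markers were lower, led by the collagen genes Col3a1 (-2.71) and Col1a1 (-2.23), with a list median of -1.06. The part of cell composition in the 10 genes' height was not tested.

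**Figure D5:**
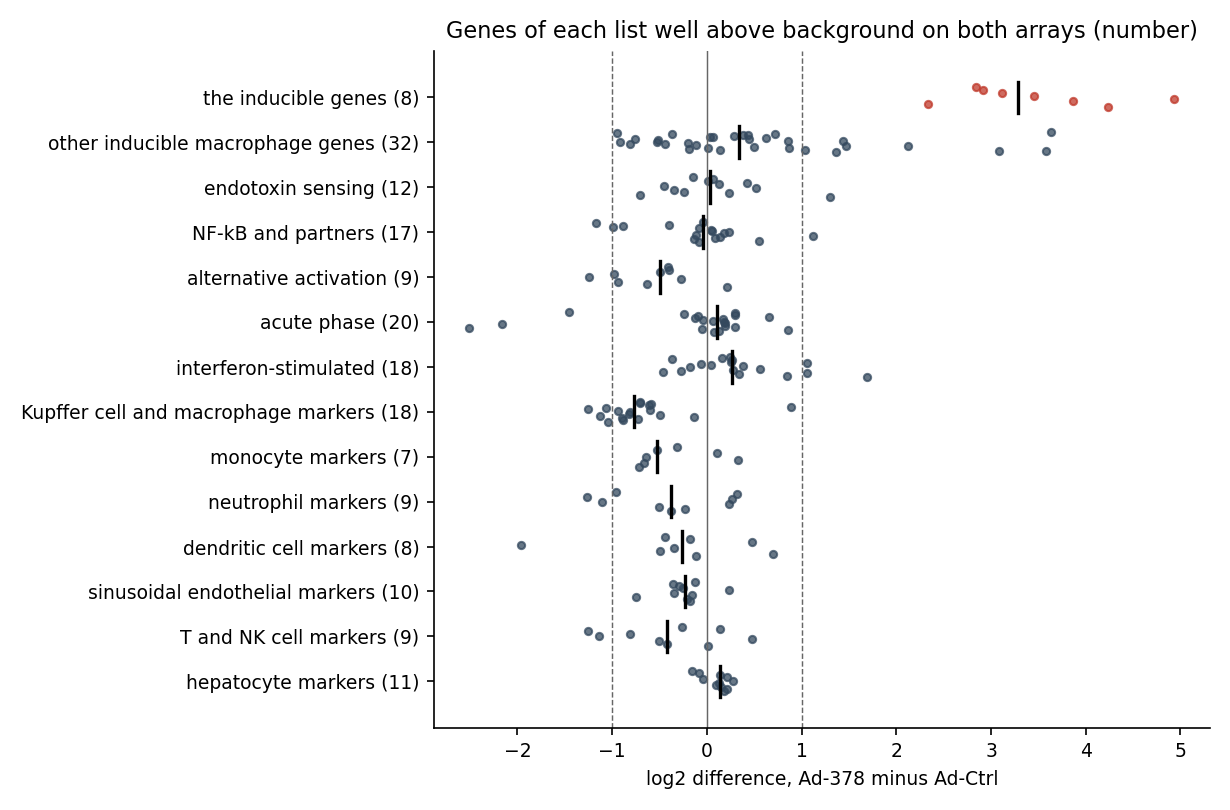
Log2 difference, Ad-378 minus Ad-Ctrl, of each gene measured on both arrays, by list, with the number measured in brackets and black bars at the list medians. The inducible genes, in red, have a median of 3.29 and none lies below 2.33, whereas 17 of 18 Kupffer cell and macrophage markers lie below 0.

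Few other genes reached the height of the 10. A difference or bound at or above that of Il1b was found in 25 further genes, 16 measured on both arrays and 9 in the Ad-378 pool only. The highest values among the 25 were those of Moxd1, a monooxygenase (6.45), Hsd3b5, a male-biased steroid enzyme of the liver (4.05), AA467197, Ccl4 and Ccl3, followed by the bounds of Inhba, Ccl12 and Lad1 (at least 7.24-fold). With 1 array per group this likeness is one of height between 2 pools and not of a pattern over samples.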

How the data were processed

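Liver RNA of 1 pool of 5 mice per group was hybridised to 1 single-colour Agilent array per group. The labels' extraction protocol describes a blood RNA kit with globin removal, although the tissue is given as liver, and 0.5 micrograms of RNA were labelled.

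The authors deposited scanner output with linear intensities per spot. Per the file headers the processed signal was background-subtracted and multiplicatively detrended within the array, and not scaled from array to array. The other deposited values used are 0 or 1 flags of background, saturation and outlier spots. Agilent Feature Extraction is given as 9.1 in the submitters' processing notes and as 11.0.1.1, with build mm9, in the file headers. The deposited series matrix holds intensities equal to each array's raw median signal in 100% of values, unscaled (column medians of 103 for Ad-378 and 112.5 for Ad-Ctrl).

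Probes were named by RefSeq accession without version (assembly GRCm38.p6). Of 39401 probes 27219 were named. Controls and outlier-marked spots (123 gene spots on each array) were dropped. Levels are log2 of the processed signal minus the array's 75th percentile over gene spots (a signal of 767 in Ad-378 and 881 in Ad-Ctrl), with the spots of a probe averaged. A probe counts as above background if the majority of its unmarked spots carry that flag, and a gene takes its brightest probe above background on both arrays. Another probe of the gene can differ. The highest probe of Ptges3 was at 1.18 and that of Vcan at 1.53, although both genes counted as within 2-fold. A gene above background on 1 array only has a bound, its value there set against the other array's dimmest detected signal (15.2 on the Ad-Ctrl array) or its own signal there, whichever is higher. The scanner error combines the deposited errors of both arrays (median over all genes 0.20 log2 units). Spots are repeat readings, not replicates.

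No test was run between the groups, and genes were counted at a 2-fold difference. The 10 genes and all lists were chosen with earlier results of these data known. Named were the 10 genes, up to 6 genes of each pathway list by size of difference and partners a sentence turns on, up to 4 of each cell type list and defining markers not above background, and up to 8 of the genes at or above the lowest of the 10. 

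Alternatives were quantile and loess (span 0.3) normalization, the percentile over detected probes, the mean over probes, the median over spots, normexp (offset 50, on median signals), the series matrix values, no background filter, and thresholds of 1.5-fold and 3-fold. Chosen after seeing the data were keeping outlier spots, leaving out the detrending, the comparison of spots by position (probes with a log2 level of at least -3 and at least 8 unmarked spots), and setting local backgrounds marked as outliers (345 on Ad-378, 190 on Ad-Ctrl) to the array's median before normexp. Motifs were searched on both strands. The steps were tested on simulated data. Python 3.11.15, numpy 2.4.6, pandas 2.3.3, statsmodels 0.14.6, R 4.3.3 and limma 3.58.1 were used.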

Additional observations from a re-analysis of the deposited data

How the results depend on the processing

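The 10 genes were higher by 2-fold or more in the Ad-378 pool in all 100 values from 10 alternative settings, and 10 of 10 passed at thresholds of 1.5-fold and 3-fold too. Of the 100 values 81 moved by no more than about 2 scanner errors and 19 moved further, 0 of them changing sign. The median of the genes measured on both arrays, 3.29 as reported, was 2.34 with normexp and 2.55 with the series matrix values. The genes at least 2-fold higher, 402 as reported, were 1047 without the background filter, 202 with normexp and 226 with the series matrix values, and numbered 1237 at 1.5-fold and 105 at 3-fold. The genes at least 2-fold lower, 650 as reported, were 1172, 347 and 388 under the same settings, and 1740 and 203 at the same thresholds. By construction, normexp and the raw signals of the series matrix pull dim values together. Of 2750 alternative values of listed genes 27 moved beyond that range and 0 of those past 2-fold changed sign, and 260 alternative list medians moved by less than about 2 median scanner errors. No paired analysis was possible because there is 1 sample in either group, and for the same reason no array could be left out. Precision is limited by the number of arrays and, for the Ad-Ctrl values of Il6, Nos2, Tnf and Ptgs2, by signals near background. The Ad-Ctrl signals of Acod1 (42.5), Ch25h (48.0) and Gpr84 (48.3) were little brighter than those of Il6 (33.4) and Nos2 (34.9).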
